A study of Mus musculus with 47 samples.

Results

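Fc receptors are the cell surface proteins that bind the constant part of antibodies, and their transcripts were measured in mouse lung after allergic sensitization and challenge with ragweed pollen protein. The genes described are the IgG receptors Fcgr1, Fcgr2b and Fcgr3, the low-affinity IgE receptor Fcer2a (CD23) and the neonatal receptor Fcgrt. With them stands Fcer1g, the signalling chain shared by Fcgr1 and Fcgr3. Members were all probe sets that the array annotation gives to these 6 genes, which made 12 probe sets of 49372 on the arrays, and none of the 12 had a second gene symbol. They appear in 18 combinations of probe set and array table, and 5 of the 12 passed the filter on low values and were tested, among 25250 tested probe sets. The tested probe sets are 1 each for Fcgr1, Fcgr2b, Fcgr3, Fcer2a and Fcgrt. No probe set of Fcer1g was tested.

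The 4 groups were lungs taken 24 h after the last ragweed challenge, 24 h after the last PBS challenge, 72 h after ragweed and 72 h after PBS, with 2 samples each, coded 1a and 1b. Ragweed mice received ragweed pollen protein with alum at sensitization (days 0 and 3) and the protein alone into the trachea at challenge (days 10 and 17), and PBS mice received PBS on the same days. Alum is named for the ragweed mice alone, so a difference between the groups may include alum, and the labels give no strain, age or sex. Whether 1a and 1b came from different animals is not stated, so p-values measure only the spread between the 2 samples of a group, and this spread may be technical.

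Each sample was hybridised to Affymetrix murine U74 A, B and C arrays, in a first version and a version 2. The main results use first-version A, version 2 B and version 2 C, where all 4 groups are present; version 2 A lacks ragweed at 24 h among the arrays analysed here. Values are given as array intensity, and with 2 arrays per group and table their precision is limited. Values under a floor, the 40th percentile of a table, were treated as not measured and raised to it before testing: 291.6 on first-version A and 244.7 on version 2 C. On first-version A the ragweed arrays were deposited scaled to a trimmed mean of 800, whereas the PBS arrays had trimmed means of 224.7 to 376.5 and were scaled here. Group and deposited scale cannot be told apart on that version, whereas all version 2 A arrays were deposited at 800.4. The ratio of 3' to 5' actin control signal, a sign of RNA quality, was 0.88 to 0.947 in ragweed and 0.798 to 0.968 in PBS on first-version A. Markers of the labelled tissue were bright: Sftpc, the surfactant protein of alveolar type II cells, read 52066 to 61163 in ragweed lungs and 50946 to 71315 in PBS lungs.

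As background, Fcgr1 binds single IgG molecules with high affinity and Fcgr3 binds IgG complexes with low affinity. Both signal through Fcer1g, whose cytoplasmic activating motif is phosphorylated and recruits the kinase Syk. Fcgr2b is the inhibitory IgG receptor: its single inhibitory motif recruits the phosphatase SHIP-1, the product of Inpp5d, and dampens signals of the B cell receptor and of activating Fc receptors. Fcer2a is a lectin-type receptor that holds IgE on B cells. Fcgrt pairs with beta-2 microglobulin and returns IgG and albumin taken up by cells to the blood or across epithelium. In lung, macrophages, mast cells, neutrophils and B cells are the best known carriers of the IgG receptors.

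Among the 5 tested members, Fcgr2b was higher in ragweed lungs than in PBS lungs over both times, and for the other 4 no difference passed the test at either time. Averaged over 24 h and 72 h, 1 of 5 tested members was called at an adjusted p under 0.05 (limma with Benjamini-Hochberg adjustment over all 25250 probe sets), and it was higher in ragweed; of all tested probe sets, 0.65% were called in that comparison and 0.463% were called higher. At 24 h none of the 5 members was called, against 0.23% of all probe sets, and at 72 h none was called, against 0.527%. At an unadjusted p under 0.05, 1 of the 5 members, Fcgr2b, stood at each time, against 8.67% of all probe sets at 24 h and 9.63% at 72 h. No member was called for a difference between the 72 h and 24 h responses, where 0.0356% of probe sets were called, or between PBS at 72 h and PBS at 24 h, where 0.281% were. In the main fit no tested member had an unadjusted p under 0.05 in these last 2 comparisons. On version 2 A, Fcer2a did between the PBS groups (1.15 ± 0.22, limma unadjusted p = 0.00106, adjusted p = 0.204). In 1 of the 5 members, Fcgr2b, all 4 ragweed samples lay above all 4 PBS samples, which was so for 2.2% of all tested probe sets. A count of 1 in 5 is too small to set against these shares, so the members are described gene by gene.

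**Figure D1:**
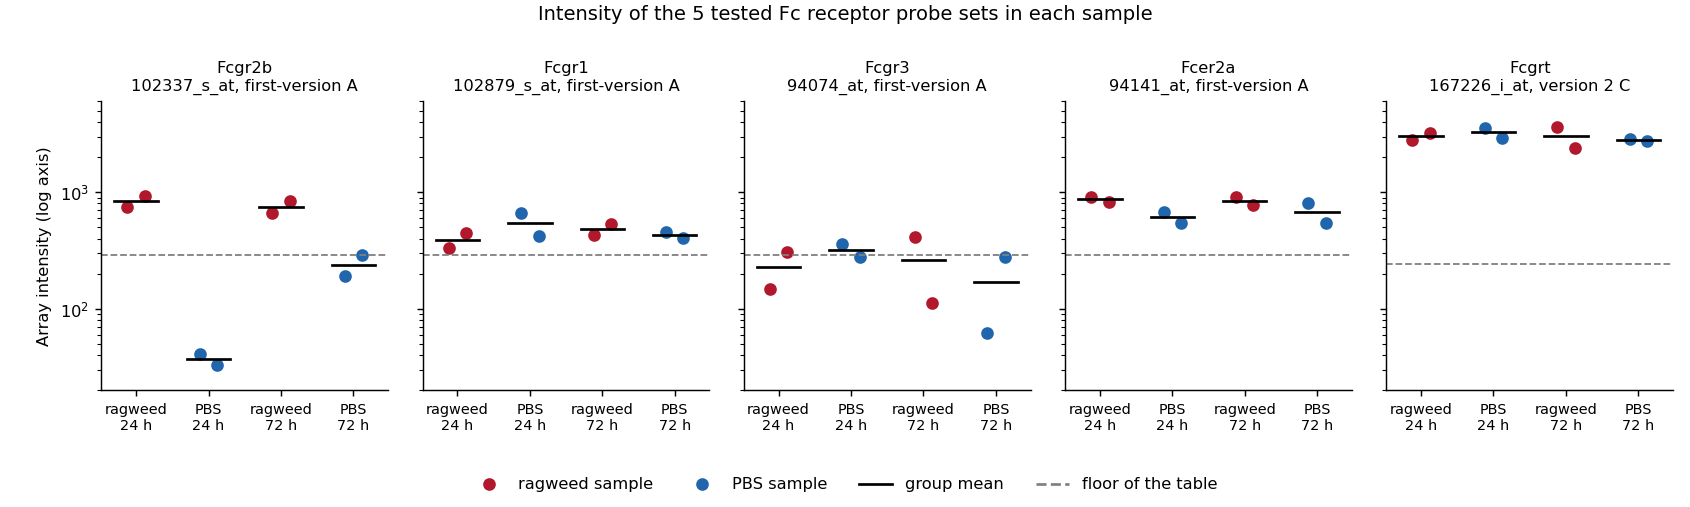
Array intensity (log axis) of the 5 tested Fc receptor probe sets in each of the 8 samples, with ragweed in red, PBS in blue, a bar at each group mean (n = 2) and a dashed line at the floor of the table. Fcgr2b lies at 665.1 or above in the ragweed samples and below the floor of 291.6 in the PBS samples. Ragweed and PBS samples of Fcgr1, Fcgr3 and Fcgrt overlap at both times, and those of Fcer2a overlap at 72 h but not at 24 h.

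Fcgr2b was the member with the clearest difference. Its probe set 102337_s_at read 747.9 and 933.7 in the ragweed 24 h samples, against 41.0 and 32.7 in the PBS 24 h samples. At 72 h it read 665.1 and 841.6 in the ragweed samples, against 191.8 and 287.5 in the PBS samples. The ragweed samples of the 2 times overlapped with each other, all 4 lay above the floor of 291.6, and all 4 PBS samples lay below it, where values have no order. With the PBS values set to the floor, Fcgr2b was at least 2.87-fold higher in ragweed at 24 h, a log2 difference of at least 1.52 ± 0.24 (SE, n = 2 per group), with a limma adjusted p of 0.067. At 72 h it was at least 2.57-fold higher, by at least 1.36 ± 0.24 on the log2 scale (limma adjusted p = 0.0707). Averaged over both times it rose by at least 1.44 ± 0.17 (limma adjusted p = 0.0122), higher in 4 of 4 ragweed samples. The probe set passed the filter on low values through its ragweed values alone, so a higher level in ragweed was built into its being tested. With no filter on low values, the averaged difference was still called (limma adjusted p = 0.0387). It was not called when all first-version A probe sets were kept as well (at least 1.74 ± 0.19, limma adjusted p = 0.0526). The response at 72 h minus that at 24 h was -0.16 ± 0.34 (limma adjusted p = 0.948; 95% interval -0.95 to 0.63), a value built from PBS groups at the floor. In whole lung RNA, more cells that carry Fcgr2b and more transcript in each such cell cannot be told apart.

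The averaged call on Fcgr2b depended on single samples. Without the ragweed 24 h 1a sample the averaged difference was still called (adjusted p = 0.0454), but leaving out any other single sample raised the limma adjusted p to between 0.0578 and 0.113, with differences of 1.35 to 1.52. Since its PBS values were all set to the same floor, they contribute no variance, and the standard errors of Fcgr2b may be too small. Analysed without a floor, as log2(intensity + 50), the averaged difference was 2.42 and was called (limma adjusted p = 0.0015). The difference was 3.35 at 24 h (limma adjusted p = 0.00242) and 1.48 at 72 h (limma adjusted p = 0.169). The averaged and 24 h values without a floor rest on PBS 24 h readings of 41.0 and 32.7, which lie below the floor. On version 2 A the same PBS 24 h samples read 213.0 and 212.7, so the size of these 2 differences is uncertain. With the floor at the 20th percentile the averaged difference was 2.33 (limma adjusted p = 0.0113).

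The same samples were read again on version 2 A, where all arrays had been deposited at the same scale. There 102337_s_at read 802.8 and 773.4 in ragweed at 72 h, against 312.4 and 271.4 in PBS at 72 h, with all 4 values above that table's floor of 237.8. The 72 h difference on version 2 A was 1.44 ± 0.20 on the log2 scale, or 2.71-fold (limma adjusted p = 0.0586), and 0.237% of the 26995 probe sets tested in the other array versions were called at 72 h. This difference lay above the lower bound of 1.36 from first-version A, and it too missed the threshold. The PBS 24 h samples read 213.0 and 212.7 on version 2 A, below its floor as they were on first-version A. On version 2 A the 3' to 5' actin ratio was 0.801 and 0.578 in ragweed at 72 h, against 0.189 and 0.198 in PBS at 72 h; the Gapdh ratio was 0.869 and 0.851 in ragweed against 0.824 and 0.751 in PBS. The part of these ratios in the version 2 A difference was not tested, and on first-version A, where the difference was at least 1.36, the actin ratio at 72 h was 0.915 and 0.88 in ragweed against 0.798 and 0.968 in PBS.

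**Figure D2:**
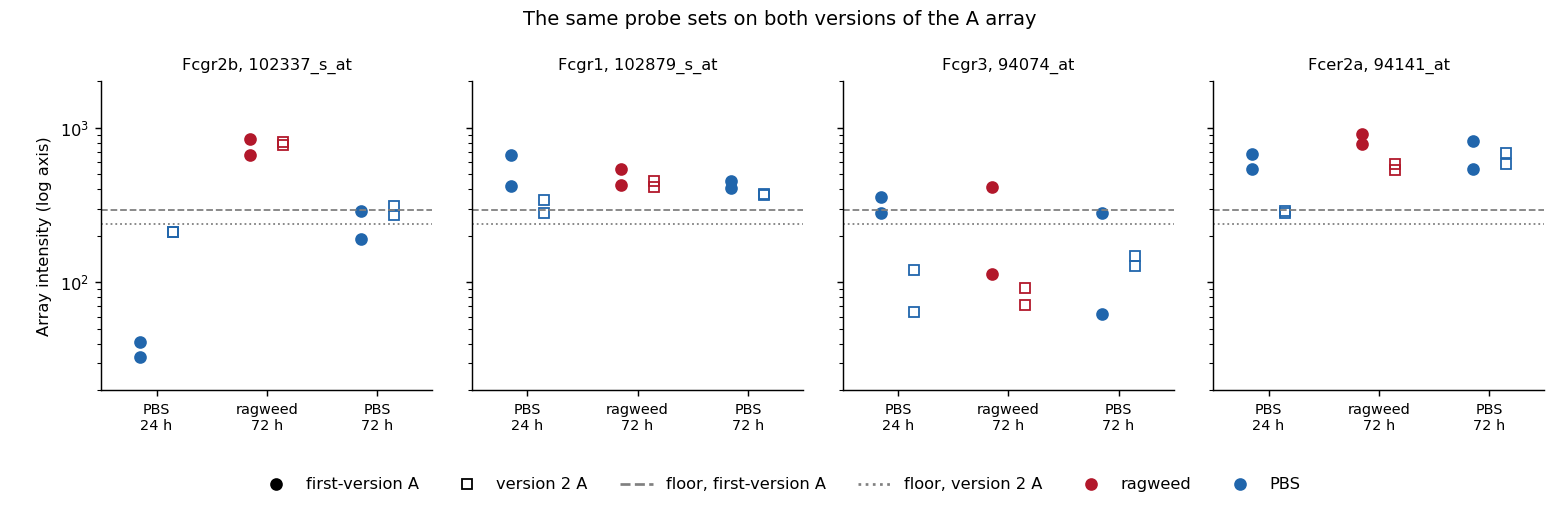
Array intensity (log axis) of the 4 tested members on the A array, on first-version A (filled circles) and version 2 A (open squares), for PBS at 24 h, ragweed at 72 h and PBS at 72 h, with the floors as dashed and dotted lines. Ragweed at 72 h lies above PBS at 72 h on both versions for Fcgr2b; for Fcer2a the order of the 72 h groups differs between versions.

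A suffix with s, f or i before "at" marks a probe set whose probes did not meet all selection rules of the array's maker, and s and f sets can detect related transcripts. The outer domains of mouse Fcgr2b and Fcgr3 are nearly identical, so 102337_s_at may detect both; this was not tested. The probe set of Fcgr3 alone, described below, was mostly under the floor.

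The promoter windows of the members are shown because Fcgr2b differed between the groups while Fcgr1, a textbook target of interferon gamma, and Fcer2a, a textbook target of interleukin 4, did not pass the test. RefSeq windows from 250 bases before to 50 after the transcript start were given for all 6 genes, 9 windows in all (build GRCm38.p6). They were searched on both strands for the interferon gamma activated site pattern TTCNNNGAA, for the spacing bound by STAT6, TTCNNNNGAA, and for the core of the PU.1 site, GAGGAA, PU.1 being a transcription factor of macrophages and B cells. No match of these overlapped another in the windows shown. Capitals mark a match. The windows lie at chr1:170976022-170976321 for Fcgr2b, chr3:96293920-96294219 for Fcgr1 and chr8:3690812-3691111 for the window of Fcer2a that held a match, all on the minus strand, and are written 5′ to 3′ in the direction of transcription:
Fcgr2b: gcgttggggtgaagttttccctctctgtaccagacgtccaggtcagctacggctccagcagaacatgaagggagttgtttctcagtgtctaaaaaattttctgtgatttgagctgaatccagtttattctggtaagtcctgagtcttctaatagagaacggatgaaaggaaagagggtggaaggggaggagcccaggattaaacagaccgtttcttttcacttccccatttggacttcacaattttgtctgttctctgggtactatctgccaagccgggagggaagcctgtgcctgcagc
Fcgr1: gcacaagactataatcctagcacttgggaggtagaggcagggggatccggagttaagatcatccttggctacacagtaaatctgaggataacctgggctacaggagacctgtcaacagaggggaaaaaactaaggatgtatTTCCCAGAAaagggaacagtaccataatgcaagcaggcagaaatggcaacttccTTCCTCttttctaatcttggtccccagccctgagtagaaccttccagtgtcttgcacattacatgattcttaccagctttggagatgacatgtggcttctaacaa
Fcer2a: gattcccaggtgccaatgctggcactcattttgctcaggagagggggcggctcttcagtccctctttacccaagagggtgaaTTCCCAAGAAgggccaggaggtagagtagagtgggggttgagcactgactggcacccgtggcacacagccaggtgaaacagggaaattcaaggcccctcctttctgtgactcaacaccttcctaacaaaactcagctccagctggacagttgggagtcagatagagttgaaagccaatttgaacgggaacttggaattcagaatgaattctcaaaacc
The Fcgr2b window held none of the 3 patterns. The Fcgr1 window held 1 TTCNNNGAA, starting at position -109 from the transcript start, and 1 GAGGAA on the opposite strand, at position -55. The Fcer2a window shown held 1 TTCNNNNGAA at position -168, and its other 2 windows held none. The 2 windows of Fcgr3 overlap and held the same 1 GAGGAA, and those of Fcer1g and Fcgrt held none of the patterns. Of 32851 mouse promoter windows of 300 bases, 8.3% held TTCNNNGAA, 7.0% held TTCNNNNGAA and 28.3% held GAGGAA. These matches describe letters in a window and say nothing of binding in these lungs.

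Fcgr1, the high-affinity activating IgG receptor, was measurable but did not separate the groups. Probe set 102879_s_at read 335.1 and 448.1 in ragweed at 24 h, against 661.4 and 422.0 in PBS at 24 h. At 72 h it read 428.9 and 536.6 in ragweed, against 453.3 and 407.0 in PBS. Ragweed and PBS samples overlapped at both times. At 24 h the mean level was 391.6 ± 79.9 in ragweed and 541.7 ± 169.3 in PBS; at 72 h it was 482.8 ± 76.2 in ragweed and 430.1 ± 32.7 in PBS (SD, n = 2 each). PBS at 24 h was thus the highest and ragweed at 24 h the lowest, and each group overlapped with its neighbour in that order. The log2 difference was -0.45 ± 0.29 at 24 h (95% interval -1.12 to 0.23, limma adjusted p = 0.747) and 0.16 ± 0.29 at 72 h (-0.51 to 0.83, adjusted p = 0.92).

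No other reading of Fcgr1 passed the test. On version 2 A, 102879_s_at read 454.7 and 412.7 in ragweed at 72 h, against 369.2 and 370.8 in PBS at 72 h, a log2 difference of 0.23 ± 0.20 (limma adjusted p = 0.768) although the samples did not overlap. A second probe set, 101793_at, lay under the floor in all 14 of its values on the A arrays, between 15.3 and 90.7. On the C arrays 139584_at, of the first version, was above the floor in all 8 samples and differed by 0.18 ± 0.53 at 24 h and 0.03 ± 0.53 at 72 h (limma adjusted p = 0.995 and 1.0). Its version 2 counterpart, 166960_f_at, lay between 169.0 and 282.1 and above the floor in 1 of 8 samples.

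Fcgr3, the low-affinity activating IgG receptor, was at the edge of measurement. Probe set 94074_at read 147.7 and 307.1 in ragweed at 24 h, against 357.4 and 280.9 in PBS at 24 h. At 72 h it read 410.9 and 112.6 in ragweed, against 62.2 and 279.3 in PBS. Of these 8 values 3 lay above the floor, 1 in each group except PBS at 72 h, and the ragweed and PBS samples overlapped at both times. The fitted log2 difference was -0.11 ± 0.19 at 24 h and 0.25 ± 0.19 at 72 h (limma adjusted p = 0.921 and 0.741). On version 2 A all 6 values of Fcgr3, from 64.3 to 146.9, lay under the floor. A difference in Fcgr3 between ragweed and PBS lungs was not detectable on these arrays.

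Fcer1g, the chain through which Fcgr1, Fcgr3 and the IgE receptor of mast cells signal, was not measurable. Its 3 probe sets gave 20 values, of which 3 lay above a floor, in 3 different samples. On first-version A, where the floor over all probe sets was 265.1, 104377_at read 115.9 and 80.8 in ragweed at 24 h, against 165.9 and 278.3 in PBS at 24 h. It read 41.0 and 234.7 in ragweed at 72 h, against 53.6 and 55.5 in PBS at 72 h. On version 2 A, 160692_at read 43.0 and 293.9 in ragweed at 72 h, against 111.8 and 78.2 in PBS at 72 h. There 162181_f_at read 45.3 and 81.0 in ragweed at 72 h, against 159.7 and 74.5 in PBS at 72 h. No group had both samples above the floor on any of the 3 probe sets. A change of the chain between ragweed and PBS lungs was not detectable on these arrays.

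**Figure D3:**
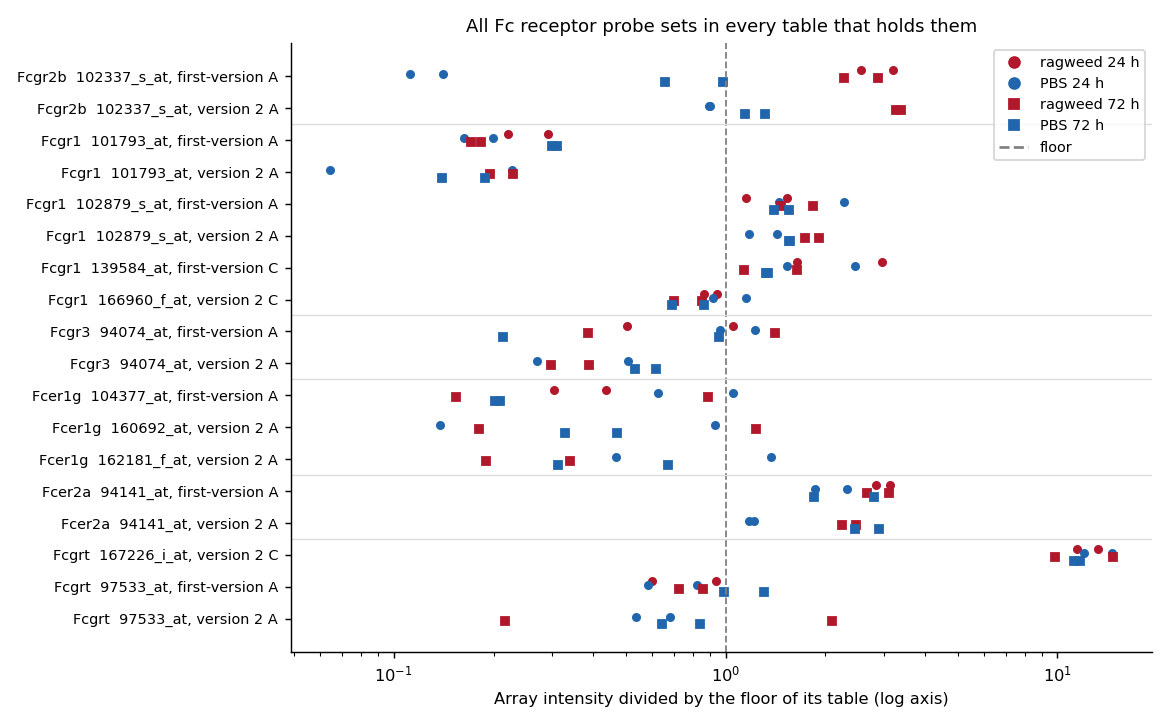
Intensity divided by the floor of its table (log axis) for every Fc receptor probe set in every table that holds it, with ragweed in red, PBS in blue, circles for 24 h and squares for 72 h; the dashed line marks the floor. Of 128 values, 61 lie above the floor, among them all 14 of Fcer2a, 8 of 14 of Fcgr2b, 3 of 14 of Fcgr3 and 3 of 20 of Fcer1g.

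Fcer2a, the low-affinity IgE receptor CD23, was above the floor in every sample, and its differences did not pass the test. On first-version A, 94141_at read 913.6 and 826.4 in ragweed at 24 h, against 677.6 and 542.8 in PBS at 24 h. At 72 h it read 905.0 and 779.2 in ragweed, against 815.1 and 540.2 in PBS. Ragweed lay above PBS without overlap at 24 h, and the groups overlapped at 72 h. Ordered by mean, ragweed at 24 h (870.0 ± 61.6) stood above ragweed at 72 h (842.1 ± 89.0), PBS at 72 h (677.6 ± 194.3) and PBS at 24 h (610.2 ± 95.3; SD, n = 2 each), and each group overlapped with its neighbour. The log2 difference was 0.52 ± 0.28 at 24 h (95% interval -0.13 to 1.17, limma adjusted p = 0.701), 0.34 ± 0.28 at 72 h (-0.31 to 0.99, adjusted p = 0.765) and 0.43 ± 0.20 on average (-0.03 to 0.89, adjusted p = 0.476).

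Version 2 A gave another order for Fcer2a. There 94141_at read 586.2 and 535.2 in ragweed at 72 h, against 582.9 and 688.6 in PBS at 72 h, a log2 difference of -0.18 ± 0.22 (limma adjusted p = 0.844). The direction at 72 h thus turned with the array version, and the value was called on neither. On version 2 A the PBS 72 h samples stood well above the PBS 24 h samples, which read 290.6 and 279.0, a log2 difference of 1.15 ± 0.22 (PBS at 72 h minus PBS at 24 h, limma adjusted p = 0.204). On first-version A the same samples differed by 0.13 ± 0.28. The actin ratio on version 2 A was 0.189 and 0.198 in PBS at 72 h, against 0.535 and 0.437 in PBS at 24 h; its part in that difference was not tested.

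Fcgrt, the neonatal Fc receptor, was above the floor in all 8 samples on its tested probe set, and its differences between ragweed and PBS lungs did not pass the test. Probe set 167226_i_at on version 2 C read 2807.4 and 3236.0 in ragweed at 24 h, against 3581.5 and 2939.3 in PBS at 24 h. At 72 h it read 3603.2 and 2405.7 in ragweed, against 2851.4 and 2737.0 in PBS. The groups overlapped at both times, and the ragweed 72 h samples held both the highest and the lowest value of all. The mean at 24 h was 3021.7 ± 303.0 in ragweed and 3260.4 ± 454.1 in PBS; the mean at 72 h was 3004.5 ± 846.7 in ragweed and 2794.2 ± 80.9 in PBS (SD, n = 2 each). Ordered by mean, each group overlapped with its neighbour. The log2 difference was -0.11 ± 0.25 at 24 h (limma adjusted p = 0.954), 0.08 ± 0.25 at 72 h (adjusted p = 0.974) and -0.02 ± 0.18 on average, with a 95% interval of -0.42 to 0.38. The 3' to 5' actin ratio on version 2 C was higher in ragweed without overlap, at 1.43 and 1.6 in ragweed against 0.993 and 1.08 in PBS for the 24 h samples. For the 72 h samples it was 1.11 and 1.39 in ragweed, with 0.861 and 0.869 in PBS, and its part in the Fcgrt values was not tested. A second probe set, 97533_at on the A arrays, was above the floor in 2 of 14 values and was not tested; its ragweed 72 h samples on version 2 A read 51.5 and 499.1.

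**Figure D4:**
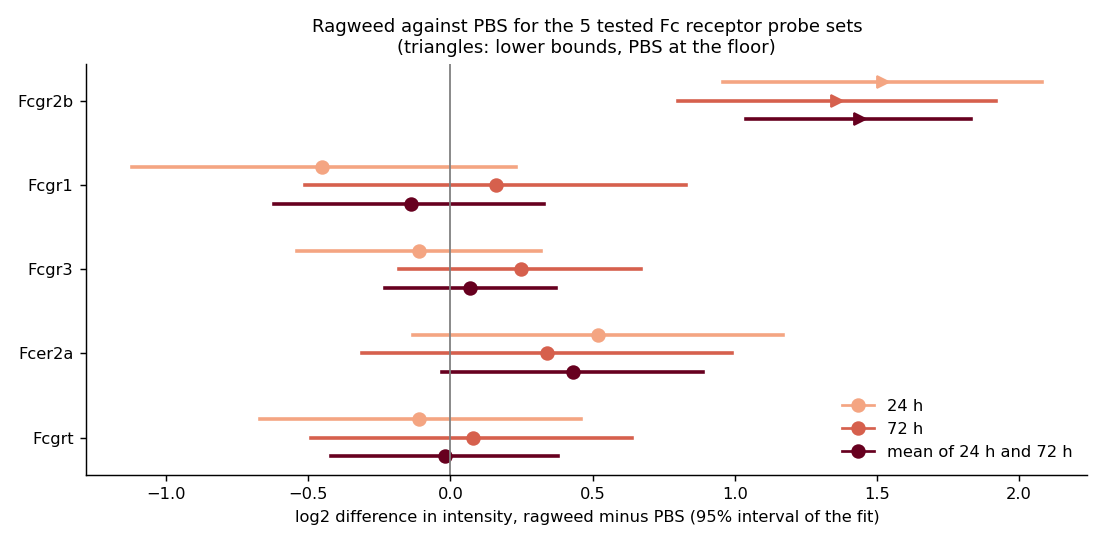
Log2 difference in intensity, ragweed minus PBS, for the 5 tested Fc receptor probe sets at 24 h, at 72 h and averaged, with the 95% interval of the limma fit. The Fcgr2b values, drawn as triangles, are lower bounds of 1.52, 1.36 and 1.44 because PBS was at the floor; the intervals of Fcgr1, Fcgr3, Fcer2a and Fcgrt span 0.

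The partners of the members were read from lists of pathway genes. Beside the calls in these lists, 0.21% of all tested probe sets were called higher at 24 h and 0.333% at 72 h. Of 5 tested genes of immunoglobulin heavy chains and the joining chain, 2 rose at 24 h and 2 at 72 h, and the list's median difference was 0.74 and 1.25 against -0.00 for all 12845 genes at both times. The 2 were Ighm, the IgM heavy chain, by 1.68 ± 0.12 and 1.75 ± 0.12, and Jchain, which joins IgM and IgA units, by at least 2.07 ± 0.17 and by 1.78 ± 0.17 (limma adjusted p of 0.000697 and 0.00105 for Ighm, and of 0.00148 and 0.00399 for Jchain). At 24 h, measured against the PBS 72 h samples, Jchain differed by 0.08 and Ighm by 0.44 and neither was called. At 72 h, Ighm kept its call in 6 and Jchain in 4 of the 8 fits without 1 sample, and with the other array versions the differences of 1.39 for Ighm and 1.71 for Jchain were not called. The IgG heavy chains were poorly covered. Among those listed only Ighg3 was tested, and it differed by 0.47 ± 0.29 at 24 h and 1.25 ± 0.29 at 72 h (limma adjusted p = 0.73 and 0.157). Ighg1, Ighg2b and Ighg2c had no tested probe set, nor had Ighe, the ligand chain of Fcer2a. Igha, the heavy chain of IgA, differed by 0.74 ± 0.31 and 1.24 ± 0.31 (limma adjusted p = 0.549 and 0.194).

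Of 9 other tested Fc and immunoglobulin receptors and Fc-binding proteins, 2 rose at each time, with list medians of 0.29 and 0.15. Pigr, which carries IgA and IgM across epithelium, read 6660 to 7006 in ragweed at 24 h, against 1856 to 2108 in PBS at 24 h, and 7798 to 8240 against 3035 to 3046 at 72 h. Fcgbp, an IgG-binding protein of mucus, read 2157 to 2382 in ragweed at 24 h, against 305 to 306 in PBS, and 3475 to 3708 against 762 to 796 at 72 h. At 24 h both kept their calls in all 8 fits without 1 sample, and at 72 h each did in 4 of 8 (limma adjusted p up to 0.0644). B2m, the light chain of Fcgrt, overlapped between ragweed and PBS at both times and differed by 0.29 ± 0.24 and 0.19 ± 0.24 (limma adjusted p = 0.792 and 0.86). Ms4a2, the beta chain of the mast cell IgE receptor, differed by 0.31 ± 0.37 and 0.24 ± 0.37 (limma adjusted p = 0.872 and 0.893). Fcgr4, another activating IgG receptor of mice, and Fcer1a, the IgE-binding chain of that mast cell receptor, had no tested probe set.

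Genes downstream of the receptors were divided into activating and inhibitory signalling. Of 18 tested genes of activating signalling none was called by limma at 24 h or 72 h, and the medians were 0.32 and 0.10. Unadjusted p was under 0.05 for 1 of the 18 at 24 h and 5 at 72 h, beside 8.67% and 9.63% of all probe sets. Syk, the kinase that binds the phosphorylated chain, read 2321 to 2506 in ragweed at 24 h, against 1570 to 1699 in PBS at 24 h, and differed by 0.56 ± 0.14 at 24 h and 0.30 ± 0.14 at 72 h (limma adjusted p = 0.244 and 0.532); it was chosen after its values were seen. Tyrobp, another adaptor with an activating motif, differed by 0.36 ± 0.20 and 0.66 ± 0.20 (limma adjusted p = 0.713 and 0.314). Plcg2, a phospholipase of the pathway, differed by -0.00 ± 0.21 and by at least 0.69 ± 0.21 (limma adjusted p = 1.0 and 0.308), Fyn, a Src-family kinase, by 0.29 ± 0.32 and 0.73 ± 0.32 (0.855 and 0.523), and Grb2, an adaptor, by 0.38 ± 0.47 and -1.14 ± 0.47 (0.878 and 0.5). Lyn, the kinase that phosphorylates the motifs, had no tested probe set.

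Of 9 tested genes of inhibitory signalling, 1 rose at 72 h and none was called at 24 h. Unadjusted p was under 0.05 for 1 of the 9 at 24 h and 2 at 72 h, beside 8.67% and 9.63% of all probe sets. Inpp5d, the phosphatase that Fcgr2b recruits, read 577 to 581 in ragweed at 72 h, against 99 to 144 in PBS at 72 h, which is below the floor, and the difference of at least 0.99 ± 0.31 was not called (limma adjusted p = 0.315). At 24 h Inpp5d differed by 0.39 ± 0.31 (adjusted p = 0.789) and its groups overlapped. The gene that rose was Cd22, an inhibitory receptor of B cells, at 783 to 826 in ragweed at 72 h, against 90 to 329 in PBS at 72 h (1.38 ± 0.20, limma adjusted p = 0.0289). At 24 h Cd22 went the other way without being called, at 140 to 255 in ragweed, below the floor, against 368 to 435 in PBS (-0.46 ± 0.20, limma adjusted p = 0.574). The 72 h call on Cd22 was lost in each of the 8 fits without 1 sample (adjusted p from 0.0641 to 0.161), and with the other array versions the difference was 0.37. Dok2, an adaptor, differed by 0.63 ± 0.33 and 0.65 ± 0.33, and Pirb, an inhibitory receptor of myeloid cells, by 0.62 ± 0.34 and -0.46 ± 0.34, none of them called. Of 7 tested genes of the phagocyte oxidase and of uptake none was called by limma at either time. Unadjusted p was under 0.05 for 0 of the 7 at 24 h and 2 at 72 h, beside the same 8.67% and 9.63%. Cyba, an oxidase subunit, differed by 0.14 ± 0.10 and 0.46 ± 0.10. Itgb2, the beta chain of leukocyte integrins, differed by 0.18 ± 0.27 and 0.67 ± 0.27. Msr1, a scavenger receptor, differed by -0.42 ± 0.27 and 0.27 ± 0.27, and Rac2, a GTPase of the oxidase, by 0.05 ± 0.11 and 0.18 ± 0.11.

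**Figure D5:**
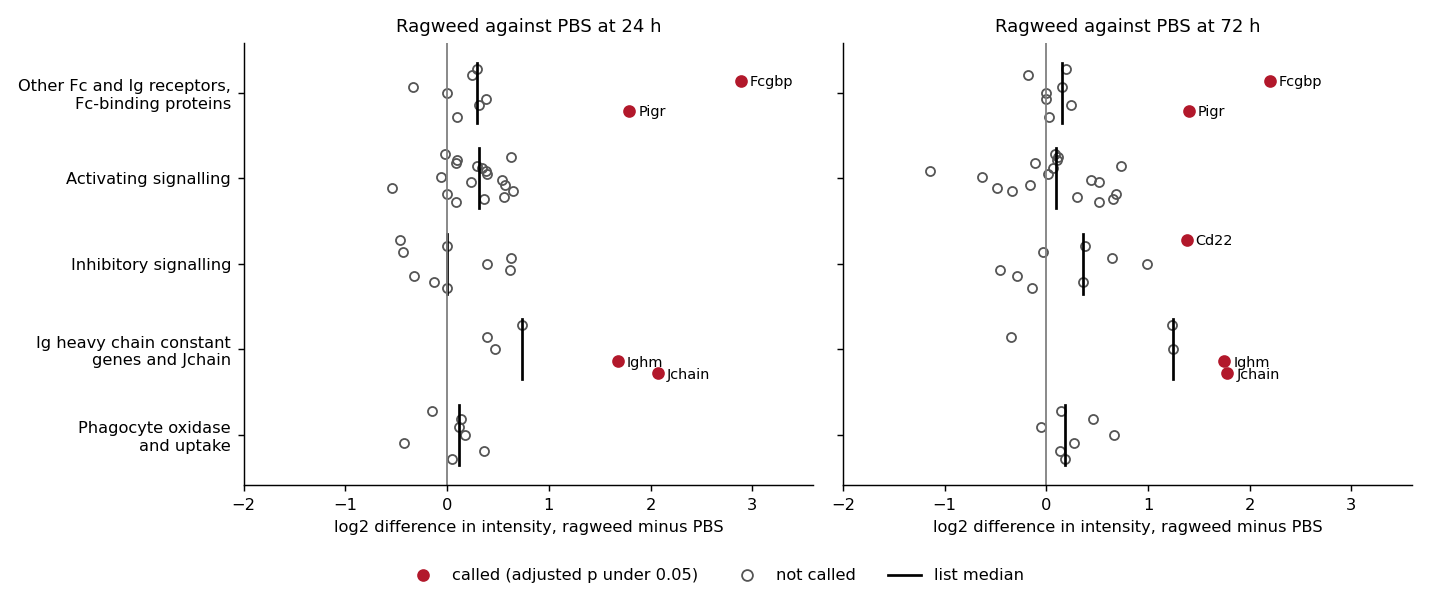
Log2 difference in intensity, ragweed minus PBS, of each tested gene in 5 lists of Fc receptor partners at 24 h and 72 h, with called genes filled and named, other genes open, and a bar at each list's median. Pigr, Fcgbp, Ighm and Jchain are called at both times and Cd22 at 72 h; none of the 18 activating signalling genes is called.

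Markers of cells that carry the receptors were read beside Fcgr2b. Of 11 tested macrophage and monocyte markers, 1 rose at 24 h, Ctss, a lysosomal protease, and 2 at 72 h, Ctss and Mpeg1, the macrophage perforin, with medians of 0.16 and 0.51. At an unadjusted p under 0.05 stood 4 of the 11 at 24 h and 8 at 72 h, beside 8.67% and 9.63% of all probe sets. Of these markers only Lyz2 was lower in ragweed. Ctss kept its call in 3 of 8 fits without 1 sample at 24 h and in 5 of 8 at 72 h. Mpeg1 kept it in 0 of 8, and with the other array versions it differed by 0.07 (limma adjusted p = 0.941). The markers' summed intensity was 47857 to 48890 in ragweed at 24 h, against 56575 to 63201 in PBS at 24 h, and 56462 to 65702 in ragweed at 72 h, against 53110 to 57642 in PBS at 72 h. The sum was mostly Lyz2, a lysozyme, at 27321 in both ragweed 24 h samples, against 41672 to 49622 in PBS at 24 h. Without Lyz2 the sum was 20536 to 21569 in ragweed against 13579 to 14903 in PBS at 24 h, and 29678 to 29754 against 15247 to 15970 at 72 h. Adgre1, Itgam and Marco, which define macrophage types, had no tested probe set. Of 6 markers of alternatively activated macrophages, 3 rose at 24 h, Chil3, Retnla and Arg1, and 2 at 72 h, Chil3 and Retnla, and their sum was 61014 to 64118 against 5916 to 6044 at 24 h and 65019 to 70077 against 7808 to 8742 at 72 h, mostly from Chil3, a chitinase-like protein. At 72 h the call on Retnla, a resistin-like secreted protein, held in 4 of 8 fits without 1 sample; at 24 h that on Arg1, the enzyme arginase, held in 2 of 8. Of 7 B cell markers none was called at 24 h, with 1 at an unadjusted p under 0.05, and 1, Cd22, rose at 72 h; their sum was 4230 to 4770 in ragweed against 4270 to 5230 in PBS at 24 h, and 5849 to 6208 against 5707 to 6042 at 72 h. Cd79b had no tested probe set. In the averaged comparison, where Fcgr2b was called, 2 of the 11 macrophage markers were called higher, Ctss and the mannose receptor Mrc1. So were 5 of the 6 markers of alternative activation, a list that also holds Mrc1. Of all tested probe sets, 0.463% were called higher there. At an unadjusted p under 0.05 stood 9 of the 11 macrophage markers, of which Lyz2 was lower, beside 11.1% of all probe sets. None of the 7 B cell markers was called there, with 3 at an unadjusted p under 0.05. The part of these cell types in the Fcgr2b difference was not tested.

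Other cell types were read in the same way. Of 5 plasma cell markers, 2 rose at 24 h, Ighm and Jchain again, and 3 at 72 h, these and Mzb1, whose call held in 2 of 8 fits without 1 sample. None of the tested markers of mast cells and basophils (4), eosinophils (2), neutrophils (4), natural killer cells (2), T cells (4), dendritic cells (3) or lung endothelium (6) was called by limma at 24 h or 72 h. At an unadjusted p under 0.05 stood 7 of these 25 genes at 24 h and 7 at 72 h, beside the 8.67% and 9.63% of all probe sets. In the averaged comparison 3 of the 6 endothelial markers were called: Cdh5, a cadherin of endothelial junctions, by -0.55, Kdr, a receptor of vascular endothelial growth factor, by -0.78, and Vwf, von Willebrand factor, by 0.48 (limma adjusted p = 0.0353, 0.0464 and 0.0438). Cpa3 and Mcpt4, which define mast cells, and Prg2 and Epx, which define eosinophils, had no tested probe set. Of 6 lung epithelial markers, 2 rose at 24 h, the club cell genes Scgb1a1 and Cyp2f2, and 1, Cyp2f2, fell at 72 h. These calls turned with the PBS samples used: against PBS of the other time Scgb1a1 at 24 h was 0.0 (limma adjusted p = 1.0), and Cyp2f2 was -1.03 at 24 h and 0.87 at 72 h. Of the 8 fits without 1 sample, 4 kept the call on Scgb1a1, 0 that on Cyp2f2 at 24 h and 4 that on Cyp2f2 at 72 h. Of 3 heart muscle markers, 2 fell at 72 h, Myl7 by 1.31 ± 0.17 and Nppa by 1.48 ± 0.14 on the log2 scale (limma adjusted p = 0.0209 and 0.00399). Myl7 kept its call in 0 and Nppa in 4 of the 8 fits without 1 sample, and against the PBS 24 h samples they differed by -0.32 and -0.67 and were not called. The summed heart muscle signal was 2528 to 2639 in ragweed against 4095 to 4426 in PBS at 24 h, and 3278 to 3860 against 7838 to 8771 at 72 h, and its part in the results was not tested.

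Likeness between the members is given as a description. Over the 8 samples, which share their arrays and groups, Pearson's r of log2 intensity was 0.71 between Fcgr2b and Fcer2a, 0.83 between Fcgr3 and Fcgrt, and between -0.21 and 0.32 for the other 8 pairs. Of 12844 other genes, the 5 with the pattern most like Fcgr2b were Slco4c1, an organic anion transporter (r = 0.988), Serpinb5, a serpin of epithelium (0.981), the chitinase-like genes Chil3 (0.974) and Chil1 (0.972), and Ctsb, a lysosomal protease (0.968). For Fcer2a these were Copb2 (0.964), Psd (0.955), Hoxa6 (0.944), Igkv7-33 (0.942) and Tmem141 (0.942). For Fcgrt they were 1700010B08Rik (0.974), Src (0.957), Slc45a3 (0.95), Slc35g1 (0.936) and Dmac2l (0.934), and for Fcgr1 the highest was Slc25a18 (0.94). With 8 samples and this many genes, coefficients of this size describe these samples only. Values under the floor were set to it before r was taken, so the PBS values of Fcgr2b are all equal. Its pattern is thus mainly that of ragweed against PBS, which any gene that separates these groups shares. The pattern of Fcgr3 rests on 3 values above the floor.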

How the data were processed

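RNA of 8 mouse lung samples in 4 groups was read on 46 distinct Affymetrix murine U74 arrays in 6 tables. The deposited values are linear intensity, 1 per probe set and array; the program that made them is not stated in the labels or files. The authors had brought the ragweed arrays of the first version and every array of version 2 to a common 2% trimmed mean near 800, as read from the deposited values. A further array of ragweed at 24 h on first-version A, uncoded, equalled the 1a array divided by 2.63 and was not counted again.

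Control probe sets were left out. First-version A, restricted to 9977 probe sets also on version 2 A, was brought to the same trimmed mean on every array and then quantile normalized; version 2 B and C were kept as deposited. Values under the 40th percentile of a table were raised to it (291.6, 356.4 and 244.7 on A, B and C), and log2 was taken. Flooring followed scaling because the PBS arrays of the first version had not been scaled. Tested were probe sets with 2 or more arrays above the floor, 6896, 9190 and 9164 of them, with limma 3.58.1 in R 4.3.3 (eBayes with a trend, 1 mean per group, 4 residual degrees of freedom). P-values of the 3 tables were pooled within a comparison, adjusted by Benjamini-Hochberg and called under 0.05. The other array versions were fitted in the same way. The fit was tested on simulated data. A difference between a group wholly above the floor and one wholly under it is given as a lower bound. The median standard error of a difference was 0.23 on the A table, against 0.32 for B and 0.45 for C.

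Gene symbols of the array annotation were updated through gene IDs. Outside the members, each gene was represented by 1 probe set with a single symbol. Named genes were all member probe sets and, in each list of pathway genes, the genes called at either time and the 4 with the largest difference at 72 h. Of the marker lists, called genes, genes without a tested probe set and, chosen after their values were seen, Lyz2 and Sftpc are named. Members and lists were chosen with earlier results of these data known, so their calls are no independent support. Replicate codes were checked for pairing: deviations of same-coded samples correlated between -0.08 and 0.04 over 18 pairs of groups, so codes were not used as pairs.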

Additional observations from a re-analysis of the deposited data

How the results depend on the processing

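The Fcgr2b difference stayed positive at 24 h, at 72 h and on average under every alternative run. In fits that kept the main values and floor of first-version A, all PBS values were at the floor and all ragweed values above it. Their positive sign, also without 1 sample or against other PBS samples, was thus fixed in advance and adds no support. At 24 h the Fcgr2b difference was called with a floor at the 20th percentile (2.99) and with no floor (3.35, resting on PBS 24 h readings below the floor). It was also called without a trend in eBayes, with p-values adjusted within each table and against PBS of both times (1.52 in each of these 3). At 72 h it was called with the same 3 alternatives (1.36). All PBS values of Fcgr2b were set to the floor, so PBS of both times had to give the same difference. The calls against PBS of both times therefore add no support. Leaving out 1 sample at a time gave 1.36 to 1.68 at 24 h, 1.19 to 1.53 at 72 h and 1.35 to 1.52 on average, where the call was lost in 7 of 8 fits. With the replicate block the averaged Fcgr2b difference was 1.44 (limma adjusted p = 0.0238) and no member's call changed; the replicate block gave 58, 90, 120, 8 and 59 called probe sets for 24 h, 72 h, their average, their difference and PBS at 72 h against 24 h. The alternatives for the average and for PBS at 72 h against 24 h, and the fits without a filter for members under the floor, were chosen after seeing the data. Small differences of the other members changed sign. Against PBS of the other time, Fcgr1 at 72 h was -0.14, Fcgrt was 0.11 at 24 h and -0.14 at 72 h, and Fcgr3 at 24 h was 0.04; against PBS of both times Fcgrt at 72 h was -0.03. With version 2 B and C quantile normalized, Fcgrt was 0.01 at 24 h and 0.08 on average. With a floor at the 20th percentile the average of Fcgr3 was -0.12, and on version 2 A Fcer2a at 72 h was -0.18. Leaving out 1 sample turned the sign of the average of Fcgr1 (range -0.31 to 0.02), of Fcgrt at 24 h (-0.25 to 0.04), at 72 h (-0.22 to 0.37), on average (-0.16 to 0.13) and in the difference between times (-0.11 to 0.47), of Fcgr3 at 24 h (-0.26 to 0.04) and on average (-0.05 to 0.19), and of the difference between times for Fcgr2b (-0.33 to 0.01) and Fcer2a (-0.48 to 0.12); the cause was not tested. Counts over all probe sets moved more. At 24 h, 58 became 90 with no floor, 121 with no filter, 6 with the other array versions and 91 adjusted within each table, and 22 to 204 without 1 sample. At 72 h, 133 became 64 with the other versions, 80 without a trend, 236 against PBS of the other time, 238 against PBS of both times, and 2 to 59 without 1 sample. For the average, 164 became 10 with the other versions, 98 without a trend, 248 within each table and 39 to 106 without 1 sample. For the difference between times, 9 became 18 with no floor, 123 with no filter, 0 with the other versions, 4 without a trend, 23 within each table and 0 to 5 without 1 sample. For PBS, 71 became 118 with no filter, 41 with the other versions, 32 without a trend and 0 to 20 without 1 sample.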
